A study of Mus musculus with 3 samples.

Results

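In mouse primordial germ cells, from which eggs and sperm develop, 2673 H3K4me3 regions lay beside an H3K27me3 region without sharing any sequence with it. These bordering regions were chosen by the called positions of both marks: an H3K4me3 region of 4000 bp or less on an autosome, with no overlap with H3K27me3 and a gap of 5000 bp or less, edge to edge, to the nearest H3K27me3 region. They are 2673 of the 47928 H3K4me3 regions in the list. Lack of overlap, gap and width were all used in the choice, so their values are descriptions and no test was made of them. Most of these regions were flanked on 1 side only (2344 of 2673), and 329 had H3K27me3 within 5000 bp on both sides.

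Trimethylation of histone H3 on lysine 4 (H3K4me3) is placed at promoters by SET1 and MLL enzymes and is found at active and at CpG-rich promoters. Trimethylation on lysine 27 (H3K27me3) is placed by Polycomb repressive complex 2 over silent genes, many of them developmental regulators, and can spread from a nucleation site over neighbouring nucleosomes. H3K4me3 on the same histone tail hinders the Polycomb enzyme, and some MLL complexes contain an H3K27 demethylase. Bivalent chromatin, by contrast, has both marks at the same place. In primordial germ cells, bivalent marking of developmental genes has been studied as a poised state of the germ line.

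The cells came from E11.5 embryos of a transgenic Oct4:GFP B6 line crossed to Swiss-Webster females, and carried green fluorescent protein under the control of Oct4, a gene active in germ cells at this stage. Gonadal regions of several embryos were pooled and GFP-positive cells were sorted. Aliquots of 104000 and 97000 cells were each split equally for precipitation of either mark and for an input, so both marks were measured in the same pools but in separate reactions. The 3 samples each represent 2 replicates, and the 2 lists of called regions (1 per mark) were used here; the input was not analysed here. All groups share the genotype, the stage and the sort, and there is no treatment. The lists hold positions on mouse build mm9 without read counts. The depth of a region is therefore unknown, and with 1 list per mark no spread between replicates can be given. Intervals are 95% Wilson intervals for shares and cover the counting of regions only; regions are not replicates. Neighbouring regions can be bordering regions of the same H3K27me3 region and are then not independent. An annotation of mm9 was not used here, so regions were not matched to genes, and marker genes of germ cells or of other gonadal cells were not examined.

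Among the 37470 non-overlapping H3K4me3 regions of 4000 bp or less on autosomes, the bordering regions made up 7.13% (6.88 to 7.40%). The remaining 34797 lay more than 5000 bp away and are called distant. A further 8514 regions of 4000 bp or less overlapped H3K27me3 by at least 1 bp and are called overlapping. The bordering regions covered 2238800 bp, which was 4.59% of the autosomal H3K4me3 length. An additional 31 regions met every condition except the width limit.

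The gap was 0 more often than any other length. Region ends lie on a 200-bp grid, and 206 bordering regions (7.71%, 6.76 to 8.78%) touched the H3K27me3 region with no step between them. The sources do not say whether both marks were called in 1 model, and its part in the count at 0 was not tested. Gaps of 200 and 400 bp were found for 88 and 72 regions, the latter being the lowest count of any step up to 5000 bp. From 600 to 5000 bp the count per 200-bp step ranged from 84 to 123, with a median of 101, and the last step before the limit held 94. The median gap was 2400 bp (quartiles 1000 and 3800 bp), which is close to the middle of the permitted range. Gaps of 1000 bp or less were found for 677 regions (25.3%, 23.7 to 27.01%).

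**Figure D1:**
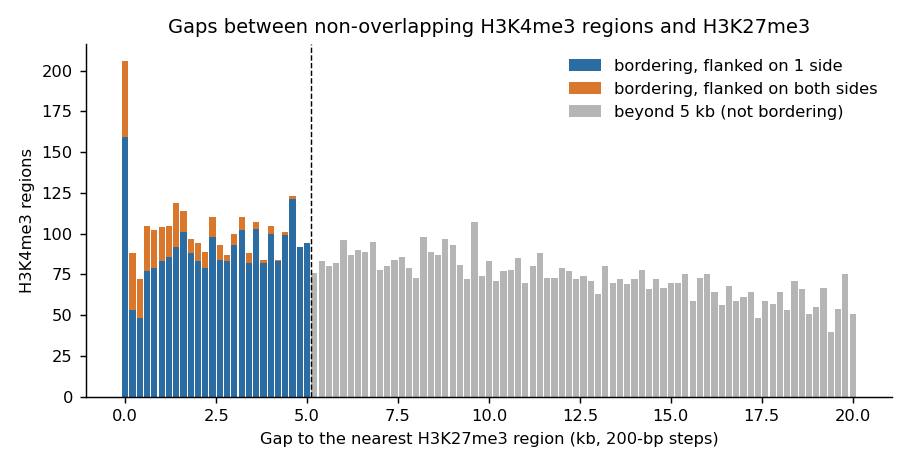
Number of non-overlapping H3K4me3 regions of 4000 bp or less (y axis) by the gap to the nearest H3K27me3 region in kb (x axis, 200-bp steps); blue and orange bars are bordering regions flanked on 1 side and on both sides, grey bars are distant regions, and the dashed line is the 5-kb limit. The step at 0 holds 206 regions, the steps from 600 to 5000 bp hold 84 to 123, and those from 5200 to 10000 bp hold 72 to 107.

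Counts per step were lower beyond the 5000-bp limit than within it. The ranges overlapped, with 84 to 123 from 600 to 5000 bp and 72 to 107 from 5200 to 10000 bp. At the limit, 94 regions had a gap of 5000 bp and 76 a gap of 5200 bp. The median H3K4me3 width was 600 bp just inside and 800 bp just outside, and the median width of the nearest H3K27me3 region was 1800 and 1600 bp. Counts per step had a median of 84 from 5200 to 10000 bp, 72 from 10200 to 15000 bp and 61 from 15200 to 20000 bp. At the width limit, 4 bordering regions measured 4000 bp, and 2 regions of 4200 bp within 5000 bp of H3K27me3 fell just outside.

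Coverage by distance placed the bordering regions in the sequence around H3K27me3 edges. H3K4me3 covered 12.7% of the sequence in the outermost 1000 bp inside H3K27me3 and 5.51% of the first 1000 bp outside. Most of the latter (4.51%) belonged to regions that overlap H3K27me3 and extend beyond its edge. H3K4me3 regions without overlap covered 0.607% of the first 200 bp outside, 0.993% of the first 1000 bp, 1.98% from 1000 to 5000 bp and 2.55% from 5000 to 10000 bp. They thus occupied less of the sequence nearest to H3K27me3 than of sequence farther out. Part of this difference is geometric, since a region that reaches the edge counts as overlapping once it goes past it.

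Coverage by all H3K4me3, which does not depend on that split, was instead highest outside H3K27me3 in the step next to the edge. It fell from 7.14% in the first 200 bp to 2.06% between 2800 and 3000 bp from the edge. That was the lowest step within 20 kb, but little below the steps beside it (2.07 and 2.13%). It was 2.55% from 5000 to 10000 bp and 2.78% from 10000 to 20000 bp. The average over autosomal sequence outside H3K27me3 was 1.68%, so H3K4me3 was denser than that average throughout the 20 kb around H3K27me3.

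**Figure D2:**
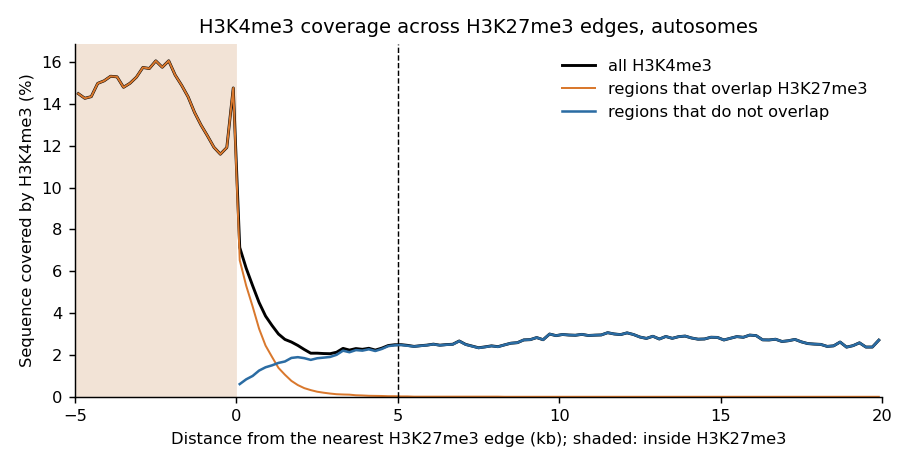
Percent of sequence covered by H3K4me3 (y axis) by distance in kb from the nearest H3K27me3 edge (x axis), from 5 kb inside (shaded) to 20 kb outside, in 200-bp steps on autosomes. Regions without overlap (blue) cover 0.607% of the first 200 bp outside and 2.55% from 5 to 10 kb, while all H3K4me3 (black) has its lowest value, 2.06%, between 2.8 and 3 kb.

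Flanking on both sides was found for 329 of 2673 bordering regions (12.3%, 11.1 to 13.6%). Of the 2344 flanked on 1 side, 1124 had the H3K27me3 region at lower coordinates and 1220 at higher coordinates, so neither direction along the chromosome was much favoured. On their other side, the next H3K27me3 region lay at a median of 58200 bp (quartiles 18400 and 176000 bp, 2341 regions; the other 3 had none on that side).

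Regions flanked on both sides had shorter gaps to the nearest H3K27me3, with a median of 1000 bp (quartiles 400 and 2000 bp), whereas the median for 1 side was 2600 bp (1400 and 4000 bp). This follows in part from taking the shorter of 2 gaps. Their longer gap had a median of 2800 bp (1600 and 4000 bp). The space between the flanking H3K27me3 regions had a median length of 4600 bp (2800 and 6400 bp, at most 10400 bp), and the H3K4me3 region filled a median of 15.0% of it (7.14 and 25%). In 226 of the 329 (68.7%) it was the single H3K4me3 region in that space. The 329 regions occupied 300 spaces, and 48 had both gaps at 1000 bp or less. H3K4me3 filled the whole space, with both gaps at 0, in 3 cases.

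Few spaces of this length held a separate H3K4me3 region. Of the 2579 spaces of 2200 to 5000 bp between successive H3K27me3 regions, 146 (5.66%, 4.83 to 6.62%) contained an H3K4me3 region that overlapped neither neighbour. The share was 10.8% (9.49 to 12.3%) for spaces of 5200 to 10000 bp and 1.87% (1.35 to 2.58%) for spaces of 1200 to 2000 bp. With H3K4me3 that reached in from an overlapping region counted too, the shares were 8.25% (7.10 to 9.56%) for 1200 to 2000 bp, 11.01% (9.86 to 12.3%) for 2200 to 5000 bp and 16.0% (14.4 to 17.7%) for 5200 to 10000 bp. Longer spaces offer more room, and no share per length was computed.

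The 5 regions flanked most closely on both sides were named by the sum of their gaps. A 2400-bp H3K4me3 region at chr5:33799601-33802000 touched an H3K27me3 region of 600 bp at its lower end and one of 18.6 kb at its upper end. A 2000-bp region at chr15:93425201-93427200 touched H3K27me3 regions of 600 and 1000 bp, and a 1200-bp region at chr4:154771401-154772600 touched regions of 600 and 200 bp. These 3 are the cases with no gap on either side.

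In the next pair, 1 of the gaps was 200 bp. The 1600-bp region at chr15:59110801-59112400 touched an H3K27me3 region of 8000 bp and lay 200 bp from one of 3200 bp. A 600-bp region at chr11:94798601-94799200 lay 200 bp from one of 5600 bp and touched one of 800 bp. In none of these 5 did the nearest H3K27me3 region overlap another H3K4me3 region. The widest bordering region flanked on both sides measured 3800 bp (chr2:118532801-118536600), with a gap of 400 bp to an H3K27me3 region of 10.6 kb and no gap to one of 2600 bp.

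**Figure D3:**
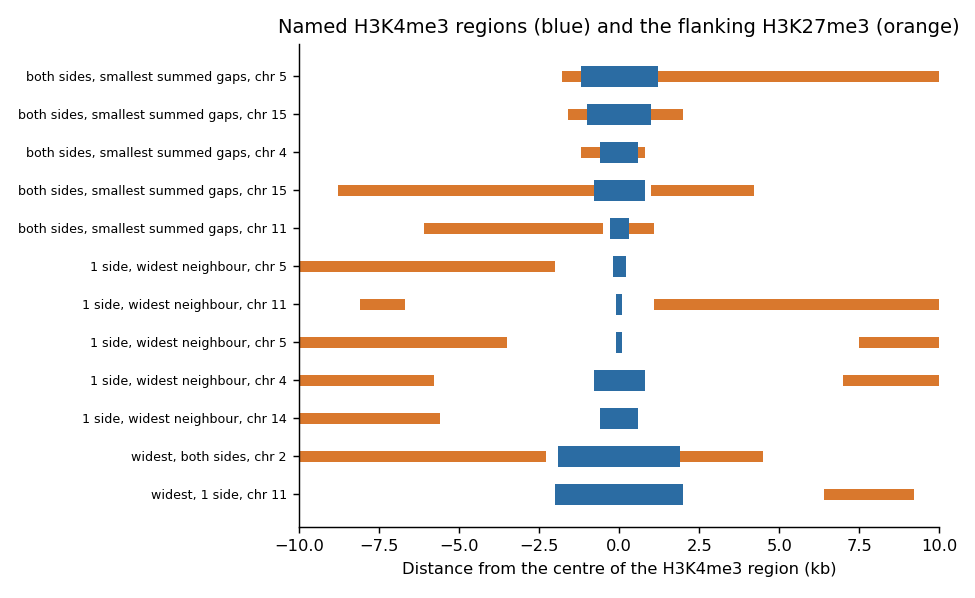
The 12 H3K4me3 regions named by rule (blue) with the next H3K27me3 region on each side (orange), by distance in kb from the centre of the H3K4me3 region (x axis, cut at 10 kb each way); each line is 1 region, labelled with the rule and its chromosome. The 3 uppermost regions touch H3K27me3 on both sides, and the 5 with the widest neighbour on 1 side have gaps of 1000 to 5000 bp.

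The H3K27me3 region beside a bordering region was close to ordinary in median width. The nearest one had a median width of 1600 bp, with quartiles of 800 and 3800 bp. The median was 1800 bp over all 18152 autosomal H3K27me3 regions (quartiles 800 and 3600 bp) and 1400 bp for those nearest to distant regions (800 and 3000 bp). It was wider than the H3K4me3 region in 1968 of 2673 cases (73.6%) and equally wide in 171. Neighbours over 10 kb were found for 142 bordering regions (5.31%, 4.52 to 6.23%). H3K27me3 regions of 10200 to 20000 bp were the neighbour in 4.15% and made up 4.56% of all autosomal H3K27me3 regions, so domains of this width were no more frequent beside these H3K4me3 regions than in the list.

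Regions flanked on both sides had wider neighbours. The median for their nearest H3K27me3 region was 2400 bp (quartiles 1000 and 5600 bp), compared with 1600 bp for regions flanked on 1 side (800 and 3600 bp). When the flanks of each region were sorted by width, the wider one had a median of 4000 bp (2200 and 7600 bp). The narrower one had a median of 1200 bp (600 and 2200 bp). This difference follows in part from the sorting, and no such values were computed for other pairs of H3K27me3 regions. In 117 of the 329 (35.6%, 30.6 to 40.9%) the wider flank was at least 4 times as wide as the narrower, and in 60 it exceeded 10 kb.

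**Figure D4:**
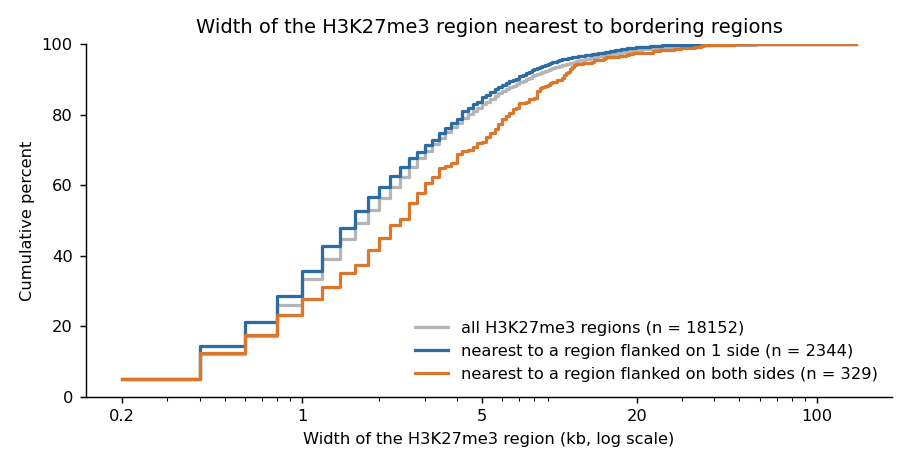
Cumulative percent (y axis) of H3K27me3 regions by width in kb (x axis, log scale), for all 18152 autosomal regions (grey), for those nearest to the 2344 bordering regions flanked on 1 side (blue) and for those nearest to the 329 flanked on both sides (orange). Grey and blue run close together (medians 1800 and 1600 bp), and orange lies to the right (median 2400 bp).

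Among regions flanked on 1 side, the 5 with the widest neighbour measured 200 to 1600 bp. A 400-bp region at chr5:149306801-149307200 lay 1800 bp from an H3K27me3 domain of 46.4 kb, which overlapped no H3K4me3. A 200-bp region at chr11:103624601-103624800 lay 1000 bp from one of 41.8 kb, and a 200-bp region at chr5:116885001-116885200 lay 3400 bp from one of 39 kb. Regions of 1600 bp (chr4:154029001-154030600) and 1200 bp (chr14:70499401-70500600) each lay 5000 bp from domains of 39 and 35.8 kb. The last 4 of these domains overlapped H3K4me3. On the other side, the next H3K27me3 region lay not far beyond the limit for the chr11 region (6600 bp), chr5:116885001-116885200 (7400 bp) and the chr4 region (6200 bp). It lay 63400 bp from chr5:149306801-149307200 and 75600 bp from the chr14 region. Regions flanked on both sides had nearest neighbours of up to 48000 bp, and the wider of their flanks reached 89200 bp. The largest width of a bordering region, 4000 bp, was shared by 4 regions, all flanked on 1 side. The one named by rule (chr11:6372801-6376800) had a gap of 4400 bp to an H3K27me3 region of 2800 bp, and the gaps of the other 3 were not all alike, with 1 of them touching H3K27me3.

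Within the limits set by the rule, rank correlations among gap, H3K4me3 width and neighbour width were weak. Over the 2673 regions, which share 2 lists and a 200-bp grid, Spearman's rho was -0.024 between H3K4me3 width and gap, 0.020 between H3K4me3 width and neighbour width, and -0.059 between gap and neighbour width. These values are descriptions across regions. The rule cut both gap and H3K4me3 width, so weak correlations do not show that the 3 are independent. Median neighbour width was 2000 bp at gaps of 200 to 1000 bp and 1600 bp at gaps of 4200 to 5000 bp.

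The bordering regions were as narrow as distant ones and narrower than overlapping ones. Their median width was 600 bp, with quartiles of 200 and 1200 bp. Distant regions also had a median of 600 bp (200 and 1400 bp), and overlapping regions of 4000 bp or less one of 1000 bp (400 and 1600 bp). Regions of a single 200-bp step made up 26.5% (24.8 to 28.2%) of the bordering, 28.4% (27.9 to 28.8%) of the distant and 17.1% (16.3 to 17.9%) of the overlapping regions. Among non-overlapping H3K4me3 regions, bordering was most frequent at widths of 600 to 1000 bp (808 of 9373, 8.62%, 8.07 to 9.21%) and least frequent at 2200 to 3000 bp (139 of 3364, 4.13%, 3.51 to 4.86%), with 6.70% (6.23 to 7.19%) at 200 bp. Touching regions were wider, with a median of 800 bp (quartiles 400 and 1400 bp), and 14.1% (9.98 to 19.5%) of them were of a single step.

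Many bordering regions stood next to H3K27me3 that overlapped H3K4me3 elsewhere along its length; the lists come from separate precipitations, so this does not place both marks on the same nucleosomes. The nearest H3K27me3 region overlapped another H3K4me3 region in 1389 of 2673 cases (52.0%, 50.07 to 53.9%), compared with 36.9% of all autosomal H3K27me3 regions. This was not particular to the bordering regions, since the same share was 59.1% (58.6 to 59.6%) for distant regions. The share was lower for regions flanked on both sides (127 of 329, 38.6%, 33.5 to 43.97%) than for those on 1 side (1262 of 2344, 53.8%, 51.8 to 55.8%), and it was 40.8% (34.3 to 47.6%) for touching regions and 56.1% (51.7 to 60.4%) at gaps of 4200 to 5000 bp. It rose with the width of the neighbour from 42.5% (39.4 to 45.7%) at 200 to 1000 bp to 87.3% (80.9 to 91.8%) above 10 kb. All autosomal H3K27me3 regions of those widths gave 29.3% (28.2 to 30.5%) and 77.2% (74.7 to 79.5%).

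Counting H3K27me3 regions in place of bordering regions gave the direction of the comparison with all H3K27me3 regions, not of that with distant regions. Of the 18152 on autosomes, 2501 (13.8%, 13.3 to 14.3%) had at least 1 bordering region, and 48.6% (46.6 to 50.5%) of these overlapped H3K4me3, against 35.1% (34.3 to 35.8%) of the 15651 without one. Local H3K4me3 density was higher around bordering regions (a median of 6 other H3K4me3 regions within 50 kb, against 4 for distant regions). It was not measured around bordered and unbordered H3K27me3 regions, and its part in this difference was not tested.

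In the 1389 neighbours with H3K4me3 of their own, that H3K4me3 was located relative to the edge facing the bordering region. It extended to the facing edge or past it in 628 cases (45.2%, 42.6 to 47.8%), and past it in 296. In the other 761 it began at a median of 1000 bp inside the edge (quartiles 600 and 2200 bp). Such neighbours held a single H3K4me3 region in 1130 cases. No such values were computed for the opposite edge or for other H3K27me3 regions, so none of this is shown to be particular to the facing side. In 521 bordering regions (19.5%, 18.03 to 21.04%) another H3K4me3 region lay wholly or partly in the gap to the nearest H3K27me3 region. This count includes H3K4me3 that overlapped that H3K27me3 region and extended past its facing edge.

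Bordering regions had other H3K4me3 regions close by. The nearest other H3K4me3 region was at a median distance of 3400 bp (quartiles 1400 and 8600 bp), compared with 5200 bp for overlapping and 6400 bp for distant regions. Another H3K4me3 region within 1 kb was found for 569 of them (21.3%, 19.8 to 22.9%), against 16.7% of all H3K4me3 regions of 4000 bp or less on autosomes, 21.9% of overlapping and 15.1% of distant regions. Within 5 kb the shares were 64.05%, 49.6% and 45.0% for bordering, overlapping and distant regions. The nearest other H3K4me3 region was one of 4000 bp or less that overlapped H3K27me3 in 1329 cases (49.7%), another bordering region in 639 and a distant region in 661. Within 50 kb of its centre, a bordering region had a median of 6 other H3K4me3 regions (quartiles 3 and 9) and 3 H3K27me3 regions (2 and 6). An overlapping region had 4 (2 and 8) and 4 (2 and 6), and a distant region 4 (2 and 8) and 0 (0 and 1). The H3K27me3 counts follow in part from the rule, which used the distance to H3K27me3.

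Most bordered H3K27me3 regions had 1 bordering region (2089 of 2501), 335 had 2, 66 had 3 and 11 had 4 or more. Of those 11, 1 had 5 and 10 had 4. The 5 surrounded a narrow H3K27me3 region of 600 bp at chr19:10347201-10347800, with 2 H3K4me3 regions at lower coordinates (gaps of 5000 and 3000 bp) and 3 at higher coordinates (1000, 3200 and 4000 bp). That H3K27me3 region itself overlapped 1 H3K4me3 region. Of the regions with 4, the widest 2 outside chromosome 18 were named. A domain of 19.8 kb at chr10:79759601-79779400 overlapped 5 H3K4me3 regions and had 4 beside it, 3 of them on the lower side at 600, 2600 and 4600 bp. A region of 6600 bp at chr4:41442001-41448600 had 1 on the lower side at 1600 bp and 3 on the upper side at 600, 3800 and 5000 bp.

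The share of bordering regions differed between chromosomes. Among non-overlapping H3K4me3 regions it was highest on chromosome 11 (300 of 2893, 10.4%, 9.31 to 11.53%) and lowest on chromosome 16 (50 of 1259, 3.97%, 3.03 to 5.20%), with chromosomes 3 (4.27%) and 1 (4.40%) next. Across the 19 autosomes the share went with the number of H3K27me3 regions per H3K4me3 region (Spearman's rho 0.667, a description over chromosomes of the same 2 lists). That relation follows in part from the rule, which used the distance to H3K27me3. Chromosome 5 had the most H3K27me3 regions per H3K4me3 region (0.640) but a bordering share of 7.94% (6.94 to 9.07%), within the range of the other autosomes. On its H3K27me3-rich stretch of 11 Mb (chr5:111000001-122000000), which was picked out after its H3K27me3 values were seen, 46 of 296 non-overlapping H3K4me3 regions (15.5%, 11.9 to 20.1%) were bordering regions and 11 of the 46 were flanked on both sides. The median gap was 2000 to 2800 bp on every autosome.

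**Figure D5:**
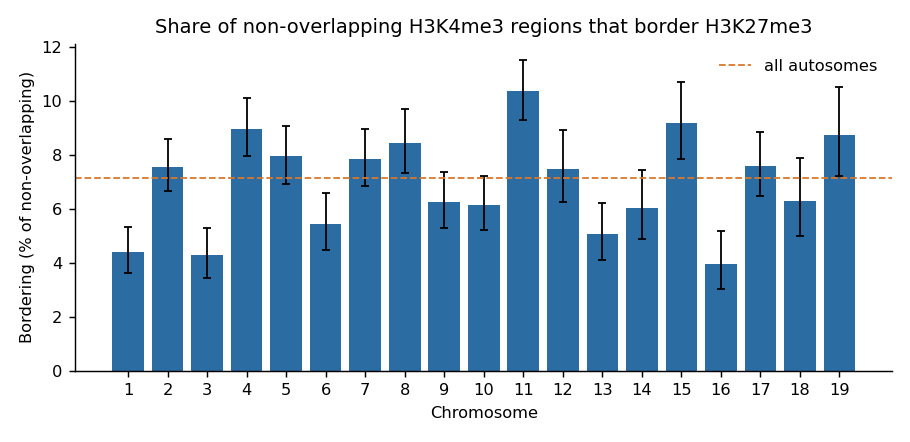
Percent of non-overlapping H3K4me3 regions of 4000 bp or less that border H3K27me3 (y axis) on each of the 19 autosomes (x axis); error bars are 95% Wilson intervals and the dashed line is the share over all autosomes, 7.13%. Chromosome 11 is highest at 10.4% and chromosome 16 lowest at 3.97%.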

How the data were processed

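Chromatin of sorted E11.5 primordial germ cells was cross-linked in 0.25% formaldehyde for 10 min, per the labels' protocols, and precipitated with 2.4 µg of antibody per mark; libraries had 20 cycles of amplification. Bowtie 0.12.7 and build mm9 are named in the submitters' processing notes. The authors deposited 1 list of contiguous ChromHMM regions per mark, whose 4 columns give positions and names with no score; all ends are multiples of 200 bp. ChromHMM settings, use of the input and the merging of replicates, and whether 1 model was fitted to both marks, are not given in the sources used.

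The gap was the distance between region ends, 0 when regions touch. A region was flanked on both sides when each side had H3K27me3 within 5000 bp. At equal gaps the wider neighbour was taken. Shares have Wilson intervals and medians have quartiles. No test over samples was possible with 1 list per mark. The assignment of classes and gaps was tested on simulated data, and bedtools 2.31.1 gave the same 2673 regions and gaps. Calculations were run in Python 3.11.15 with scipy 1.17.1, pandas 2.3.3, numpy 2.4.6 and matplotlib 3.10.9.

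Regions were named outside chromosome 18 by a rule: 5 flanked on both sides with the smallest summed gaps, 5 flanked on 1 side with the widest neighbour, the widest of each kind, and the 3 H3K27me3 regions with most bordering regions; ties went to the wider H3K27me3 (summed over both flanks) or, at equal neighbour or region width, to the smaller gap, then to position. The members and rules were chosen with earlier results of these data known. Gene lists planned for this comparison were not used, because the genes were given on assembly GRCm38 and coordinates were not moved between builds.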

Additional observations from a re-analysis of the deposited data

How the results depend on the processing

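The 8 results were recomputed under 10 alternatives, which gave 80 values. Of these, 49 stayed alike (counts within 1.5 times, shares inside the Wilson interval, medians inside their binomial interval) and 31 moved. Changing the largest gap moved the number of bordering regions, their share and the gap lengths by construction, and flanking on both sides also uses that limit. The share of neighbours with H3K4me3 is not set by the limit, and it rose with the gap. At 2000 bp there were 1206 bordering regions, 3.22% of non-overlapping regions, 11.03% flanked on both sides, with a median gap of 1000 bp, 56.1% of gaps at 1 kb or less and 48.4% of neighbours with H3K4me3. At 10000 bp these were 4812, 12.8%, 15.2%, 4600 bp, 14.1% and 54.01%. Without regions of 400 bp or less, 1438 regions bordered H3K27me3 (6.57%), 27.7% of them within 1 kb, 44.9% with H3K4me3 in the neighbour, and the median widths were 1000 bp for H3K4me3 and 2000 bp for the neighbour, since narrow regions were removed. With H3K27me3 regions joined over 1 kb, the neighbour's median width was 2000 bp and 54.7% of neighbours overlapped H3K4me3. With H3K4me3 joined, the bordering share was 6.76%, the median gap 2600 bp, 21.5% lay within 1 kb and 47.7% of neighbours overlapped H3K4me3. A width limit of 2000 bp gave a share of 7.52%. Without H3K27me3 regions under 1 kb the share was 6.31%, 27.2% lay within 1 kb and the neighbour's median width was 2500 bp. Leaving out touching regions, an alternative chosen after seeing the data, gave 6.62%, a median gap of 2600 bp and 19.1% within 1 kb. No value moved without a width limit or without the 11-Mb stretch of chromosome 5. Where construction does not show it, the cause was not tested.

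No paired analysis was possible because each mark has 1 list, and for the same reason no replicate was left out. Without read counts, the limit that depth sets on calling is unknown.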
